A study of Mus musculus with 4 samples.

Results

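The 9 genes described here include the receptors for the Fc part of IgG, Fcgr1, Fcgr2b, Fcgr3 and Fcgr4. The others are Fcer1g, Syk, Fgr and Inpp5d, whose proteins carry or end their signal, and Tyrobp, a similar signalling chain of other receptors. They were taken by name from the 16375 genes listed in the RNA sequencing data, and all 9 were found. Macrophages were grown from mouse bone marrow with M-CSF for 4 d. The WT mice were C57BL/6, obtained at 4 to 6 weeks of age according to the methods, and the LNCKO mice were C57BL/6J animals without the long non-coding RNA lncLy6c, made with CRISPR-Cas9 cuts upstream of exon 1 and downstream of exon 2. Cells of each genotype were kept without butyrate (control) or given 500 µM butyrate for 24 h, which made 4 groups with 1 library each. Butyrate is a short-chain fatty acid made by gut bacteria. A single library per group leaves every difference without a check on replicates and allows no test within a genotype or within a treatment. A fit pooled over both genotypes, which would treat their butyrate changes as alike, was not run, and every interval below is a 95% interval that covers counting error only.

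IgG bound to a particle or an immune complex is read by Fc gamma receptors on macrophages. The activating receptors of the mouse have no signalling motif of their own and pair with a dimer of the Fcer1g chain, whose immunoreceptor tyrosine-based activation motif (ITAM) is phosphorylated by Src-family kinases and then holds the kinase Syk, which drives phagocytosis and the oxidative burst. Tyrobp, also called DAP12, is a similar ITAM chain that serves other receptors such as those of the TREM family. Fcgr2b carries an inhibitory motif (ITIM) in its own tail that recruits the phosphatase SHIP1, the product of Inpp5d. The balance between activating receptors and Fcgr2b is known to set the threshold at which a macrophage answers to immune complexes.

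The ITAM stretches of the 2 chains and the ITIM stretch of the inhibitory receptor are shown as coding DNA from the GENCODE M21 transcripts (GRCm38). They run 5′ to 3′, with the tyrosine codons in capitals. The ITAM stretch of Fcer1g lies on chromosome 1, minus strand, in 2 exon parts from 171229889 to 171229927 and from 171230067 to 171230072. That of Tyrobp lies on chromosome 7, plus strand, in 2 exon parts from 30415670 to 30415675 and from 30417344 to 30417382. The ITIM stretch of Fcgr2b lies in 1 exon on chromosome 1, minus strand, from 170961071 to 170961088. Each ITAM stretch has 15 codons with 10 codons between its tyrosines, and the ITIM stretch has 6 codons around 1 tyrosine. The letter pattern used for the ITIM also matched 1 time each in Fcer1g, Tyrobp and Fcgr4 and 3 times in Fcgr1. A match to it alone therefore does not separate these genes from Fcgr2b, and only the stretch of Fcgr2b is shown.
Fcer1g ITAM: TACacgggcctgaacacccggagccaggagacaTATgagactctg
Tyrobp ITAM: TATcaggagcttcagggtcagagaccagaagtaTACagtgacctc
Fcgr2b ITIM: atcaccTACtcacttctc

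Of the 4 receptors, Fcgr2b, Fcgr4 and Fcgr3 lie on chromosome 1 and Fcgr1 lies on chromosome 3. Fcgr2b (ENSMUSG00000026656) spans 170958617 to 170976547 on the minus strand, Fcgr4 (ENSMUSG00000059089) 171018920 to 171029761 on the plus strand and Fcgr3 (ENSMUSG00000059498) 171051174 to 171064935 on the minus strand. Fcer1g (ENSMUSG00000058715) lies on the same chromosome at 171229572 to 171234365, minus strand. Fcgr1 (ENSMUSG00000015947) spans 96282909 to 96293969 of chromosome 3, minus strand. The coding sequences of Fcgr2b and Fcgr3 were identical at 83.9% of 784 aligned bases and shared a run of 129 bases, against 58.6 to 63.5% for the other pairs of receptors, with shared runs of at most 14 bases. Of the 100-base stretches in their annotated transcripts, 44 were in both genes, which is 0.753% of those of Fcgr2b and 2.54% of those of Fcgr3. Reads from these stretches could be assigned to either gene. An antisense gene, Gm38204 (170973373 to 170977746), shares 155 exon bases with Fcgr2b and was not listed, and whether the counting used the strand is not known.

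Because Fcgr1, Fcgr4 and Fcgr2b were higher with butyrate in both genotypes and Fcgr3 in LNCKO alone, by little, the promoters of the 4 receptors are shown, as the 250 bases before the RefSeq start (GRCm38.p6), on the strand of the gene. RefSeq promoters were matched for 8 of the 9 genes, with 10 starts in all, and not for Tyrobp. Capitals mark matches, on either strand, to GAGGAA, the core of sites for PU.1, a transcription factor of myeloid cells. The positions are chr1:170976072-170976321 (minus) for Fcgr2b, chr1:171018676-171018925 (plus) for Fcgr4, chr3:96293970-96294219 (minus) for Fcgr1 and chr1:171059404-171059653 (minus) for Fcgr3, which has a second start 9 bases away. The windows of Fcgr2b and Fcgr3 lie inside the GENCODE spans given above, because those spans reach further upstream than the RefSeq starts. Starts further upstream were not searched.
Fcgr2b: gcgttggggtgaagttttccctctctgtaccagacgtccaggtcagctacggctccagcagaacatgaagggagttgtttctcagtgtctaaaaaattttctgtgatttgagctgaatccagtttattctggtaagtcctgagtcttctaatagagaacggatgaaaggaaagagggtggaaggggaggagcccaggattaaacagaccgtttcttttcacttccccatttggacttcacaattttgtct
Fcgr4: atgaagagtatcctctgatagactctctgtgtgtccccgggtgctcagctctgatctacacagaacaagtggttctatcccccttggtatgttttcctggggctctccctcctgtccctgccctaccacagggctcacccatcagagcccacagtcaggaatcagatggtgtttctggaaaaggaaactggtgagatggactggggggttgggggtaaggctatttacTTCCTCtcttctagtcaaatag
Fcgr1: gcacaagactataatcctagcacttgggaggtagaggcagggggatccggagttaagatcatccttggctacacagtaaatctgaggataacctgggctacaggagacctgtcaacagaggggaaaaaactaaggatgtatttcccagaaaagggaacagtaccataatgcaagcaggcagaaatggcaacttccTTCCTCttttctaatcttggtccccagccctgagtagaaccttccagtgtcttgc
Fcgr3: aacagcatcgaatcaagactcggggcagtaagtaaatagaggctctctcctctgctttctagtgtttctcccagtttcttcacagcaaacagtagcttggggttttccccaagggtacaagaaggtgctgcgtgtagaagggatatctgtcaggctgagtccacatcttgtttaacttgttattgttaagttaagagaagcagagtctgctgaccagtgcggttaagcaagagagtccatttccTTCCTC
The PU.1 core was present in the windows of Fcgr4, Fcgr1 and Fcgr3 and also in that of Inpp5d and of 1 of the 2 starts of Syk, and in 23.3% of 32851 promoter windows of this length. The GC box GGGCGG, found in 32.7% of all windows, was in none of the 10 windows of these genes. The window of Fcgr2b held neither pattern. These are matches of letters and not measured binding sites.

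The libraries held 53363944 to 65521713 fragments, and the 9 genes had 5020 to 71579 fragments each. All 10 macrophage markers of a list (among them Csf1r, Adgre1, Cd68 and Lyz2) reached a mean of 1 FPKM, the fragments per kilobase of gene per 1000000 fragments that the authors deposited. Genes of other bone marrow cells were present too, and no marker of these lists was at 0 in all libraries. The 7 B cell markers summed to 209 FPKM without and 164 with butyrate in WT, and 213 without and 216 with it in LNCKO, and the 12 neutrophil markers to 2705, 3132, 2363 and 2276 FPKM in the same order. The 7 mast cell and basophil markers summed to 35.2 to 72.3 FPKM, the 12 T and NK cell markers to 13.9 to 19.7, the 9 dendritic cell markers to 172 to 206 and the 6 listed erythroid markers to 6.22 and 6.85 in the WT libraries and 23.0 and 64.9 in the LNCKO libraries. In bulk RNA, fewer cells of a type and less RNA per cell cannot be told apart. The Y-linked genes summed to 0.136 and 0.0657 FPKM in the WT libraries and to 10.3 and 11.5 in the LNCKO libraries, so the sex of the animals and the genotype cannot be told apart. The library names of both LNCKO samples do not spell their conditions, and lncLy6c itself was not analysed here, so values for LNCKO rest on the sample titles.

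The deposited FPKM uses the whole span of a gene with its introns as its length, so that levels of different genes were compared per kilobase of exons instead. On that scale the order of the 9 genes was the same in all 4 libraries, with the ITAM chains at the top, the receptors in the middle and the kinases and the phosphatase at the bottom. In WT control macrophages the exon-based level was 691 for Tyrobp, 600 for Fcer1g, 406 for Fcgr1, 296 for Fcgr4, 231 for Fcgr3, 87.1 for Fcgr2b, 65.9 for Syk, 41.3 for Inpp5d and 28.8 for Fgr. The only neighbours in the order whose counting intervals overlapped were Tyrobp (596, 588 to 604) and Fcer1g (589, 582 to 596) in LNCKO control. The spread between animals was not measured, so the order among close neighbours has no check beyond the 4 libraries. The order also depends on the length used. With the length of the principal transcript, Tyrobp was above Fcer1g in WT control (817 and 779) and below it in the other 3 libraries, and Fcgr3 was above Fcgr4 in both controls (298 and 296 in WT) and below it with butyrate, while the order of the other 5 genes stayed the same.

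**Figure D1:**
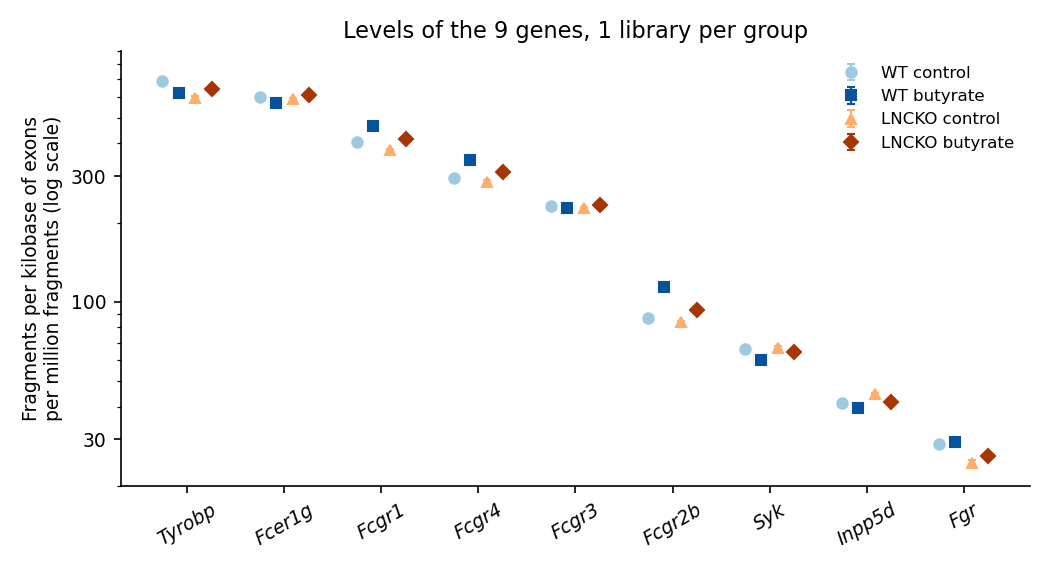
Fragments per kilobase of exons per 1000000 fragments (log axis) of the 9 genes in the 4 libraries, with 95% counting intervals that are mostly smaller than the symbols. With this length the 9 genes keep 1 order in the 4 libraries, from Tyrobp and Fcer1g down to Inpp5d and Fgr, and Fcgr2b in WT butyrate (114) stands above its other values (83.9 to 93.4).

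With butyrate, the inhibitory receptor Fcgr2b differed most among the 9 genes in WT macrophages. Its FPKM was 28.1 without and 36.7 with butyrate in WT, and 27.1 without and 30.2 with it in LNCKO. The WT butyrate library was thus the highest, and the LNCKO butyrate library was next to it and above both controls. The ratio of butyrate to control was 1.30 (1.28 to 1.32) in WT and 1.11 (1.10 to 1.131) in LNCKO, which on the log2(FPKM + 1) scale is a difference of 0.37 and 0.15. Fcgr2b ranked 138 from the highest of the 6809 genes whose mean FPKM reached 1 in WT, and 353 in LNCKO. The threshold used for counts was 0.32 on that log2 scale, where FPKM + 1, and not FPKM itself, is 25% higher. Genes of low FPKM can thus differ by over 25% in FPKM and not be counted. In all counts, past 25% means past this threshold. Fcgr2b was the 1 of 9 genes past it in WT, where 2.95% of the 6809 genes were past it upward.

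Fcgr2b is also expressed by B cells, so the B cell markers are given beside it. Cd79a and Cd79b, the signalling chains of the B cell receptor, were at 68.3 and 82.2 FPKM in WT control and at 51.3 and 62.5 in WT butyrate. In LNCKO they were at 69.3 and 82.8 FPKM without butyrate and at 69.2 and 84.4 with it. The 5 of 7 B cell markers whose mean FPKM reached 1 were all below their control value with butyrate in WT, in the opposite direction to Fcgr2b, with 3 past 25% in the lower direction and a median of -0.39 on the log2 scale. The neutrophil markers lay mostly on the same side as Fcgr2b in WT, with 9 of 12 above their control and a median of 0.16. In LNCKO 4 of 12 were above it with a median of -0.04. Of the macrophage markers, 7 of 10 were above their control in WT with a median of 0.11. In LNCKO it was 5 of 10 with a median of -0.04. They summed to 2499 FPKM without and 3415 with butyrate in WT, and 2134 without and 1401 with it in LNCKO, sums carried by Lyz2. Over all genes, 36.9% were above their control in WT and 42.2% in LNCKO. Neutrophils carry Fc gamma receptors, Fcgr4 among them. The part of neutrophils and macrophages in the receptor values was not tested.

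The activating receptors Fcgr1 and Fcgr4 were also higher with butyrate in both genotypes, below the threshold of 25%. Fcgr1 (CD64), the high-affinity receptor by which macrophages are often recognised, had an FPKM of 95.1 without and 109 with butyrate in WT, and 88.2 without and 97.1 with it in LNCKO. Its ratio of butyrate to control was 1.15 (1.14 to 1.16) in WT and 1.10 (1.09 to 1.11) in LNCKO. Both butyrate libraries were above both controls for this gene.

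Fcgr4, which binds IgG2a and IgG2b, had an FPKM of 34.3 without and 40.04 with butyrate in WT, and 33.1 without and 36.2 with it in LNCKO. The ratios were 1.17 (1.15 to 1.19) in WT and 1.09 (1.07 to 1.11) in LNCKO, and again both butyrate libraries were above both controls. Fcgr4 ranked 433 and Fcgr1 496 from the highest of the 6809 genes in WT. Fcgr2b, Fcgr4 and Fcgr1 were above their controls with butyrate in both genotypes under every scaling and pseudocount tried.

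Fcgr3, the low-affinity activating receptor next to them on chromosome 1, showed hardly any difference. Its FPKM was 29.2 without and 28.6 with butyrate in WT, and 28.6 without and 29.5 with it in LNCKO. The ratio of butyrate to control was 0.981 (0.963 to 0.999) in WT and 1.03 (1.01 to 1.05) in LNCKO. The direction in WT turned with another scaling, from -0.03 to 0.03 on the log2 scale when libraries were scaled by their median ratio. Over the 4 libraries Fcgr3 had the smallest range of the 9 genes, 0.04 on the log2(FPKM + 1) scale, and Fcgr2b the largest, 0.42.

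**Figure D2:**
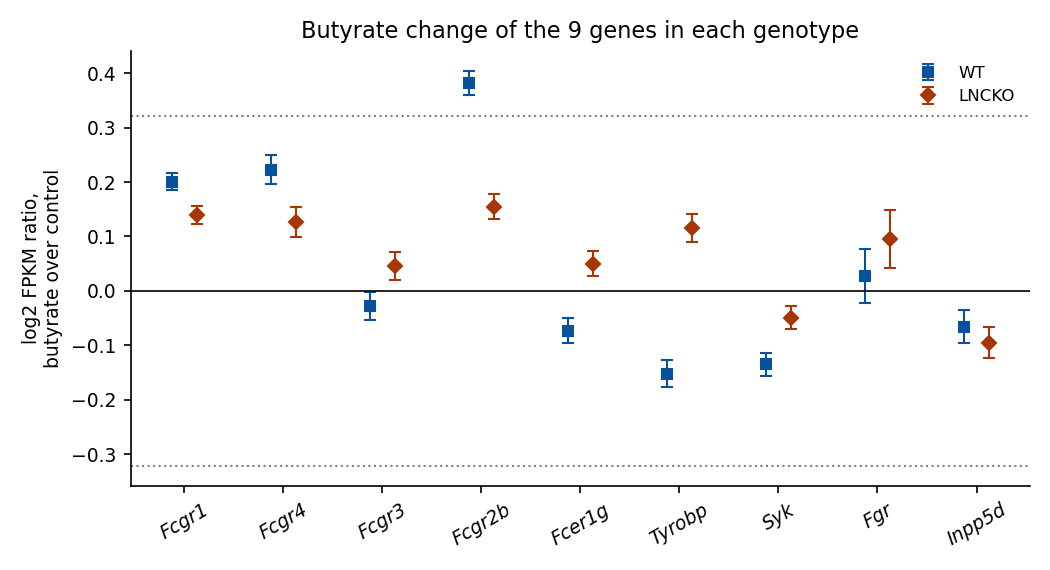
log2 of the FPKM ratio of butyrate to control (vertical axis) for the 9 genes in WT and LNCKO macrophages, with 95% counting intervals, 1 library per group, and dotted lines at the threshold of 25%. Fcgr2b in WT is the value past the upper dotted line, while Fcgr3, Fcer1g and Tyrobp lie below 0 in WT and above 0 in LNCKO.

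Since Fcgr2b moved more than the receptors it opposes, the ratio of activating receptors to Fcgr2b was computed within each library, where it does not depend on how libraries are scaled to each other. Per kilobase of exons, the summed level of Fcgr1, Fcgr3 and Fcgr4 was 10.7 times that of Fcgr2b without and 9.15 times with butyrate in WT, and 10.6 times without and 10.3 times with it in LNCKO. The lowest ratio was thus in WT butyrate, and the other 3 libraries lay close together. These absolute ratios depend on the gene length used and were lower with other lengths, with WT butyrate the lowest of the 4 libraries with each.

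Of the 3 activating receptors, Fcgr3 differed most from Fcgr2b in its change. The log2 change of the ratio of Fcgr3 to Fcgr2b with butyrate, which no choice of length alters, was -0.41 (-0.44 to -0.38) in WT and -0.11 (-0.14 to -0.07) in LNCKO. For Fcgr1 over Fcgr2b it was -0.18 (-0.21 to -0.15) in WT and -0.02 (-0.04 to 0.01) in LNCKO. For Fcgr4 over Fcgr2b it was -0.16 (-0.19 to -0.13) in WT and -0.03 (-0.06 to 0.01) in LNCKO. The LNCKO intervals of the last 2 ratios include no change, as counting error goes. Between the genotypes under butyrate, the ratio of Fcgr3 to Fcgr2b was higher in LNCKO by 0.33 (0.29 to 0.36).

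**Figure D3:**
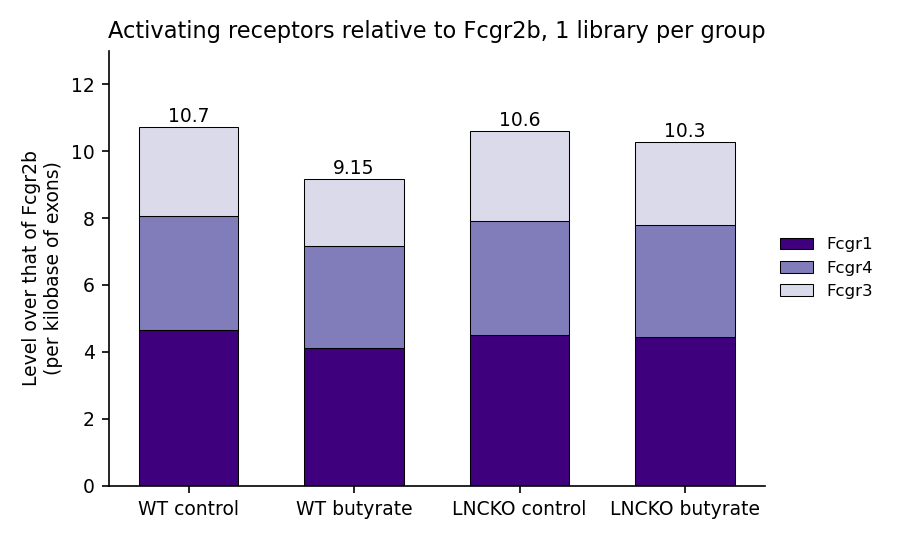
Level of Fcgr1, Fcgr4 and Fcgr3 divided by that of Fcgr2b in each library, per kilobase of exons and stacked from 0, with their sum above each bar, 1 library per group. The sum is 9.15 in WT butyrate and 10.3 to 10.7 in the other 3 libraries.

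Both ITAM chains were below their control with butyrate in WT and above it in LNCKO. Tyrobp (ENSMUSG00000030579, chromosome 7, 30413760 to 30417585) had an FPKM of 120 without and 108 with butyrate in WT, and 104 without and 113 with it in LNCKO. The WT control library was the highest and the LNCKO control library the lowest. The ratio of butyrate to control was 0.90 (0.884 to 0.916) in WT and 1.08 (1.06 to 1.10) in LNCKO, so that the values lay on opposite sides of 1 in the genotypes.

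Fcer1g, the chain that Fcgr1, Fcgr3 and Fcgr4 need for their assembly and signal, had an FPKM of 109 without and 104 with butyrate in WT, and 107 without and 111 with it in LNCKO. Its ratio was 0.951 (0.935 to 0.966) in WT and 1.04 (1.02 to 1.05) in LNCKO. The level of Fcer1g relative to the summed activating receptors, per kilobase of exons, was 0.643 without and 0.549 with butyrate in WT, and 0.662 without and 0.634 with it in LNCKO. WT butyrate was thus the library with the least Fcer1g RNA per activating receptor RNA. Mast cells and basophils also use this chain, and the summed mast cell and basophil markers were 46.6 FPKM without and 35.2 with butyrate in WT, and 72.3 without and 71.4 with it in LNCKO, whose part in the Fcer1g values was not tested.

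Syk (ENSMUSG00000021457, chromosome 13, 52583173 to 52648792), the kinase that docks on phosphorylated ITAMs, had an FPKM of 9.41 without and 8.57 with butyrate in WT, and 9.56 without and 9.24 with it in LNCKO. Both butyrate libraries were below both controls, with ratios of 0.911 (0.897 to 0.924) in WT and 0.966 (0.952 to 0.981) in LNCKO. Inpp5d (ENSMUSG00000026288, chromosome 1, 87620312 to 87720507), whose product SHIP1 removes the lipid signal made after receptor engagement, had an FPKM of 3.14 without and 3.00 with butyrate in WT, and 3.38 without and 3.16 with it in LNCKO. Inpp5d was below its control by a similar amount in the 2 genotypes, with ratios of 0.955 (0.936 to 0.976) and 0.936 (0.918 to 0.955). With libraries scaled by their median ratio the Inpp5d value in WT moved from -0.05 to -0.0058 on the log2 scale. It stayed negative but was then smaller than its counting error, so its size in WT depends on the scaling.

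Fgr (ENSMUSG00000028874, chromosome 4, 132974095 to 133001910), a Src-family kinase of myeloid cells, had an FPKM of 3.99 without and 4.07 with butyrate in WT, and 3.38 without and 3.61 with it in LNCKO. It separated by genotype rather than by treatment, with both LNCKO libraries below both WT libraries. The ratio of butyrate to control was 1.02 (0.985 to 1.06) in WT, an interval that includes no change and a direction that turned when values were rescaled to 1000000 per library, and 1.07 (1.03 to 1.11) in LNCKO.

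Counted together, 1 of the 9 genes was past the threshold in the 2 butyrate comparisons. In WT, 4 of 9 were above their control with butyrate, where 36.9% of all 6809 genes were. Their median was -0.03 on the log2(FPKM + 1) scale beside -0.04 for all genes. In the lower direction 0 of 9 were past 25%, where 2.85% of all genes were. In LNCKO, 7 of 9 were above their control, where 42.2% of all genes were, with a median of 0.07 beside -0.01. There 0 of 9 were past 25% in either direction, where 1.01% of all genes were past it upward and 0.455% downward. No gene of the 9 was past 2-fold in WT or LNCKO, where 0.338% and 0.176% of all genes were. The number of genes past 25% in WT, 201 higher and 194 lower, moved with the scaling to 274 and 134 with the median ratio. With values rescaled to 1000000 per library it was 686 and 1311. The deposited values sum to 92740 to 97027 FPKM per library, so this rescaling raises every value. The pseudocount then weighs less and more genes reach the minimum, so these counts do not show the scaling alone. In LNCKO the counts were 69 higher and 31 lower, and 376 and 357 when rescaled.

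Between the genotypes without butyrate, 7 of 9 genes were lower in LNCKO, with a median of -0.05, while 56.7% of all genes were higher and their median was 0.01. On the log2(FPKM + 1) scale Tyrobp lay lowest, at rank 180 from the lowest of 6809 genes and with an LNCKO to WT ratio of 0.863 (0.847 to 0.879). Fgr came next, at rank 224 and with a ratio of 0.847 (0.816 to 0.879). Inpp5d, at 1.08 (1.05 to 1.10), and Syk, at 1.02 (1.00 to 1.03), were higher in LNCKO. Among the 9 genes 0 were past 25%, where 1.23% of all genes were higher and 0.984% lower in LNCKO, and 0 were past 2-fold, where 0.279% were.

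Under butyrate, Fcgr1, Fcgr2b, Fcgr4 and Fgr were lower in LNCKO than in WT. The LNCKO to WT ratio was 0.823 (0.811 to 0.835) for Fcgr2b, 0.888 (0.879 to 0.897) for Fcgr1, 0.903 (0.888 to 0.919) for Fcgr4 and 0.888 (0.858 to 0.919) for Fgr. The other 5 genes were higher in LNCKO, up to a ratio of 1.08 (1.06 to 1.09) for Syk, although Fcgr3 and Tyrobp turned to the other side when libraries were scaled by their median ratio. Among the 9 genes 0 were past 25%, where 3.82% of all genes were higher and 2.48% lower, and 0 were past 2-fold, where 0.47% were. With libraries scaled by their median ratio, Fcgr2b was past 25% in the lower direction in LNCKO, at -0.33 on the log2 scale, and the counts over all genes moved from 260 higher and 169 lower to 177 and 242. Over all genes, 64.2% were higher in LNCKO under butyrate and the median was 0.04. Of the macrophage markers, 9 of 10 were lower in LNCKO under butyrate, with a median of -0.13. Their summed FPKM, carried by Lyz2, was 3415 in WT butyrate and 1401 in LNCKO butyrate. Of the neutrophil markers, 9 of 12 were lower, 7 of them past 25%, with a median of -0.36. The part of both cell types in these differences was not tested.

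The difference between the butyrate changes of the genotypes, WT minus LNCKO on the log2(FPKM + 1) scale, ran from -0.26 for Tyrobp to 0.22 for Fcgr2b, with a median of -0.05 over the 9 genes and -0.03 over all genes. Among the 9 genes 0 were past 25%, where 3.5% of all genes were past it upward and 4.1% downward. These comparisons share libraries, and with 1 library in each of the 4 groups the difference could not be tested.

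The genes around the receptors were read from 6 lists. Of 12 other immunoglobulin receptors, 6 reached a mean FPKM of 1, and 1, Fcrla, was past 25% in the lower direction with butyrate in WT. Fcrla, an Fc receptor-like protein of B cells, had an FPKM of 6.30 without and 3.92 with butyrate in WT, and 7.09 without and 7.32 with it in LNCKO, the same order as the sums of the B cell markers. Fcgrt, the neonatal Fc receptor that recycles IgG, had an FPKM of 6.08 without and 7.24 with butyrate in WT, and 5.50 without and 6.07 with it in LNCKO. It was named after its values were seen, and with butyrate it lay above its control in both genotypes, as Fcgr1, Fcgr2b and Fcgr4 did.

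Among 8 Src-family kinases and their regulators, 6 passed the minimum and all 6 were below their control with butyrate in WT, by little, with a median of -0.08 beside -0.04 over all genes, of which 36.9% were above their control. Lyn, a Src-family kinase that phosphorylates ITAMs in macrophages, was at 3.75 FPKM in WT control and 3.27 in WT butyrate. In LNCKO, 3 of the 6 were above their control, beside 42.2% of all genes, and the median was -0.01. None of the 6 was past 25% in the 2 butyrate comparisons.

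Of 20 adaptors and effectors downstream of Syk, 14 passed the minimum, 13 of them were below their control with butyrate in WT, and the median was -0.10, beside the -0.04 and the 36.9% above control of all genes. Bcl10 and Malt1, which form the complex that links CARD9 to NF-kB, were at 8.63 and 1.82 FPKM in WT control and 6.91 and 1.497 in WT butyrate. None of the 14 was past 25%, and 1 was in WT with rescaled values. In LNCKO the median was -0.02, and Bcl10 and Malt1 were at 8.05 and 1.82 FPKM in control and 8.20 and 1.79 with butyrate.

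The 13 negative regulators that passed the minimum, of 14, lay on both sides in WT, with 7 above their control and a median of 0.04. Over all genes in WT, 36.9% were above their control and the median was -0.04. In LNCKO 3 of the 13 were above their control with a median of -0.04, beside 42.2% and -0.01 over all genes. Dok3, an adaptor that restrains Syk-coupled signals, was the 1 gene past 25%, at 27.0 FPKM without and 20.9 with butyrate in WT, and 27.4 without and 25.4 with it in LNCKO. The number past 25% in this list was 2 with a pseudocount of 0.1 or rescaled values and 3 with none. Pirb, an inhibitory receptor with ITIMs like Fcgr2b, was named after its values were seen. Its FPKM was 88.0 without and 107 with butyrate in WT, and 80.2 without and 84.8 with it in LNCKO. Lilrb4a, another inhibitory receptor of this list, lay on the other side. It was at 134 FPKM without and 126 with butyrate in WT, and at 139 and 138 in LNCKO.

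Of 16 receptors that signal through Fcer1g or Tyrobp, 15 were listed and 13 passed the minimum, while Clec7a was not analysed here. In WT 7 of 13 were above their control, with a median of 0.00, beside 36.9% and -0.04 over all genes. Siglech, a Tyrobp-coupled lectin known from plasmacytoid dendritic cells and microglia, was the 1 past 25%, at 7.66 FPKM without and 5.57 with butyrate in WT, and 6.98 without and 6.66 with it in LNCKO. The number past 25% in this list was 2 with median ratio scaling, 3 with a pseudocount of 0.1 or rescaled values and 4 with no pseudocount. Trem2, a Tyrobp-coupled lipid receptor that was named after its values were seen, was at 18.9 FPKM without and 15.9 with butyrate in WT. In LNCKO it was at 16.1 without and 16.6 with butyrate, so its WT control library was the highest, as for Tyrobp. The list did not share this order. Trem1 had its lowest value in WT control, at 1.83 FPKM, and Cd300ld its highest in WT butyrate, at 18.7 FPKM.

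For the machinery that the receptors drive, 15 of 17 regulators of the phagocytic cup and NADPH oxidase subunits passed the minimum. In WT 3 of 15 were above their control and the median was -0.07, beside 36.9% and -0.04 over all genes. In LNCKO it was 5 of 15 with a median of -0.04, beside 42.2% and -0.01 over all genes. None was past 25%. Cybb, the catalytic subunit of the phagocyte oxidase, was at 34.4 FPKM without and 28.9 with butyrate in WT, and 30.4 without and 29.3 with it in LNCKO. Hcls1, an actin regulator of blood cells, was at 14.1, 12.03, 14.0 and 13.2 FPKM in the same order.

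**Figure D4:**
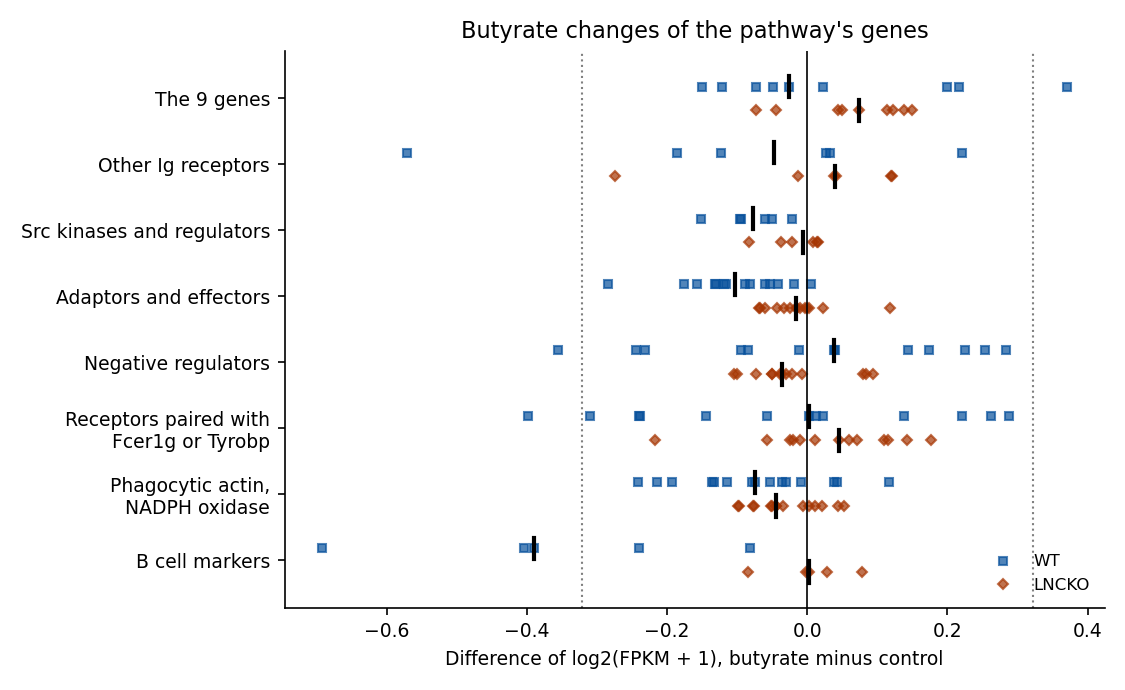
Difference of log2(FPKM + 1) between butyrate and control (horizontal axis) for the 9 genes, 6 pathway lists and the B cell markers, 1 symbol per gene whose mean FPKM reached 1, with the median as a black bar and the threshold of 25% as dotted lines. Fcgr2b in WT (0.37) is the rightmost symbol, and the B cell markers lie lowest in WT, with a median of -0.39.

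The gene with the widest range over the libraries, Fcgr2b, was compared with 6800 other genes by the Euclidean distance between centred log2(FPKM + 1) values over the 4 libraries. The 5 nearest were Ffar2, 5730409E04Rik, Plin2, Chp2 and C1ra, at distances of 0.0293 to 0.0440. Ffar2, a receptor for short-chain fatty acids, had an FPKM of 2.13 without and 2.98 with butyrate in WT, and 1.95 without and 2.27 with it in LNCKO, from 565 to 959 fragments. Plin2, which coats lipid droplets, had an FPKM of 31.5, 42.6, 31.1 and 34.7 in the same order. In each of the 5 the WT butyrate library was the highest and the LNCKO butyrate library the next. That order follows from choosing genes by their likeness to Fcgr2b and is no separate result.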

How the data were processed

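RNA sequencing of macrophages grown from mouse bone marrow was analysed in 4 groups with 1 library each. The authors deposited FPKM values for 16375 genes and no counts. The methods name TRIzol, an MGISEQ-2000 platform and 100-bp paired-end reads, whereas the labels name Illumina protocols. The submitters' processing notes list GRCm38, STAR 2.5.0c, Picard 1.126, bedtools 2.17.0 and HTSeq 0.6.0 without giving roles, and the annotation is not given in the sources used here. DESeq2 3.0 is also named among the submitters' tools.

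Whole fragments were recovered by searching, for each library, the total that makes FPKM times length whole. With the whole gene spans of GENCODE M21, 98.4% of 16342 matched genes were whole within 0.01 fragment in all 4 libraries, as were all 9 genes described, against 6.88% with merged exons. Levels between genes were computed per kilobase of merged exons.

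Changes were differences of log2(FPKM + 1), which understate changes of low genes, and plain ratios with exact conditional binomial intervals. Intervals of levels are exact Poisson intervals. Intervals of ratios of ratios use a normal approximation on the log scale. All these intervals cover counting error only, since each group has 1 library. The reads carry no molecular identifiers, so copies of a fragment may have been counted and the intervals may be too narrow. Genes past 25% (0.32 on the log2 scale) or 2-fold, both in FPKM + 1, were counted among those whose mean FPKM reached 1. No p-values were computed. Every one of the 9 genes is named. From each pathway list the genes past 25% with butyrate, at most 4, or otherwise the 2 of largest change were named. So were the 5 genes most like the member of widest range. Fcgrt, Pirb, Lilrb4a, Trem1, Trem2 and Cd300ld were added after their values were seen. Not every gene that this rule names is reported here. The 9 genes, the lists and the markers were chosen with earlier results of these data known. FPKM on merged exons and the length of the principal transcript were alternatives chosen after seeing the data. The steps were tested on simulated data. The tools were Biopython 1.88, matplotlib 3.10.9, pandas 2.3.3, scipy 1.17.1 and numpy 2.4.6 under Python 3.11.15.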

Additional observations from a re-analysis of the deposited data

Results flagged for a closer look

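Fcgr3, Fcer1g and Tyrobp lay below their control with butyrate in WT and above it in LNCKO, beyond counting error in each genotype with the libraries as deposited. The log2 ratio of butyrate to control in WT minus that in LNCKO was -0.0731 for Fcgr3, -0.123 for Fcer1g and -0.267 for Tyrobp. With 1 library per group these differences between the genotypes were not tested. With libraries scaled by their median ratio the direction of Fcgr3 in WT turned. The Fcer1g value in WT moved from -0.07 to -0.01 on the log2(FPKM + 1) scale. That shift was larger than its counting error, and the new value was within counting error of no change.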

How the results depend on the processing

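No paired analysis was possible because the labels give no replicate numbers and each group has 1 library, and a fit with the 2 genotypes as blocks was not run. Of 112 counts of list genes past 25% under the alternatives, 25 moved by over 1.5 times. Of 270 values of the 9 genes under the alternatives, 223 moved by less than their counting interval, 47 moved more, and 5 small ones took the other sign. Those were Fcgr3 in WT (0.03) and between genotypes under butyrate (-0.01) and Tyrobp between genotypes under butyrate (-0.0031), all with median ratio scaling, and Fgr in WT (-0.03) and the Inpp5d difference of the changes (-0.0029) when rescaled to 1000000 per library. Fcgr2b in WT stayed past 25%, from 0.33 when rescaled to 0.43 with median ratio scaling, and the number of the 9 genes past 25% changed in 1 place, to 1 lower between genotypes under butyrate with median ratio scaling. Rescaling put the median of all genes in WT at -0.10. The summed activating receptors over Fcgr2b, in WT without and with butyrate and then in LNCKO, were 5.64, 4.85, 5.53 and 5.40 on the gene span and 7.03, 5.96, 6.97 and 6.74 on the principal transcript. The number of all genes past 25% moved most, since these settings test more or fewer genes or weigh low genes more. Counts are given as higher then lower, for WT, LNCKO, genotype in control and genotype under butyrate. With a mean FPKM of at least 5 they were 100 and 85, 29 and 11, 37 and 21, and 115 and 77. With a pseudocount of 0.1 they were 316 and 444, 127 and 84, 177 and 127, and 479 and 303. With no pseudocount they were 342 and 495, 137 and 102, 191 and 138, and 524 and 321. Rescaled they were 686 and 1311, 376 and 357, 530 and 409, and 1200 and 685. With no filter on low values the lower counts were 53 in LNCKO and 108 for the genotype in control. Depth did not limit the 9 genes, which had at least 5020 fragments, whereas the missing replicates limit every difference.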
